A study of Mus musculus with 33 samples.

Results

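The 63 genes described here are the replication-dependent histone genes of mouse chromosomes 1 to 19, taken from 20665 protein-coding RefSeq genes of the GRCm38.p6 assembly by their symbols (the H1f1 to H1f6, H2ac, H2bc, H3c and H4c series, known before as Hist1h and Hist2h). They comprise 6 genes of the linker histone H1, 17 of H2A, 16 of H2B, 12 of H3 and 12 of H4. The state of each was read from maps of H3K9me2, the dimethylated form of lysine 9 of histone H3, and Lamin B1, a protein of the nuclear lamina, made by CUT&RUN, in which an antibody-tethered nuclease cuts out the DNA at its target. The sources were whole hearts and right forebrain lobes of wild-type E11.5 mouse embryos (C57BL/6), pooled by litter, and a C57BL/6 mouse embryonic stem (mES) cell line kept in LIF and the inhibitors PD0325901 and CHIR99021. The labels name no engineered allele in any source. No cell type was sorted from either tissue, so each map mixes all cells of its source, and the stem cells are 1 line, first plated on fibroblast feeders. Of the 33 libraries, each source has 3 for H3K9me2 and 3 for Lamin B1, and IgG has 6 in heart, 6 in forebrain and 3 in mES cells. The authors deposited 3 lists of domains per source, LAD (lamina-associated domain), KOD and open, in bins of 10 kb. KOD is the depositors' label, which the sources used here do not spell out. Each list pools its replicates and carries no score, so depth is unknown, no value has a replicate error, and no test between sources can be made.

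Nucleosomes wind DNA around a core of H2A, H2B, H3 and H4, and H1 binds the linker between them. Replication-dependent histone genes supply these proteins in S phase, when new DNA has to be packaged. They are short, lack introns in most cases, end their mRNA in a stem-loop rather than a poly(A) tail, and lie in clusters that gather with the factor NPAT in the histone locus body of the nucleus. H3K9me2 is a mark of repressed chromatin, much of it at the nuclear lamina. Expression was not measured, so a state does not say whether a gene was active.

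The promoters of 4 H2B genes are shown because each stands for 1 of the 4 combinations of states found among the 63 genes. The first H2B gene by position with an entry in the promoter table was taken for each combination, with the states known. H2bc21 on chromosome 3, which comes before H2bc13 and has the same combination, was not used here. The sequences are RefSeq's for GRCm38.p6. Each is given 5′ to 3′ as the 250 bases before the start of transcription, and capitals mark the octamer ATTTGCAT, the CCAAT box, TATAAA and the H1 box AAACACA on either strand.
H2bc13: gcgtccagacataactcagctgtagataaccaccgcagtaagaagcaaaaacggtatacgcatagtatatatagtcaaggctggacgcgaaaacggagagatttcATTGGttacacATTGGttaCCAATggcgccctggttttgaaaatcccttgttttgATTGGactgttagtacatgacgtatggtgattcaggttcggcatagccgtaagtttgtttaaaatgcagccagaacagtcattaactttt
H2bc15: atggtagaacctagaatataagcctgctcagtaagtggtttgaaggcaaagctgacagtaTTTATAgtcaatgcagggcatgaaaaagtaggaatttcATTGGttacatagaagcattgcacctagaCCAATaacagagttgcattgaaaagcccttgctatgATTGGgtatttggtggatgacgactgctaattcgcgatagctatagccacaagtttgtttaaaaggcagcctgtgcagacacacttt
H2bc18: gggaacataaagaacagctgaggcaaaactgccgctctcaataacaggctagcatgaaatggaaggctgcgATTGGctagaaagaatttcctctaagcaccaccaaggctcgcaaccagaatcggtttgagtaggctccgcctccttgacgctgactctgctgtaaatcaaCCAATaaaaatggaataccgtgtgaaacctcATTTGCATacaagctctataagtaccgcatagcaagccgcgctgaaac
H2bc1: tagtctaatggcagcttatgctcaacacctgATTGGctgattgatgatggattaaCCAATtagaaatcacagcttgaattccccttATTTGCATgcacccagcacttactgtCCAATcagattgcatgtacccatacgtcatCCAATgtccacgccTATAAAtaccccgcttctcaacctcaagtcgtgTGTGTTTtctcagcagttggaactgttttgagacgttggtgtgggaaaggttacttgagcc
H2bc13 (chr13:21716184-21716433, minus strand) was open in heart, KOD in forebrain and open in mES cells. H2bc15 (chr13:21753826-21754075, plus strand) was open in all 3 sources. H2bc18 (chr3:96269450-96269699, plus strand) was KOD in heart and forebrain and open in mES cells. H2bc1 (chr13:23934157-23934406, minus strand), the gene of the testis H2B variant, was KOD in all 3.

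In forebrain most of the histone genes were KOD, whereas in heart and in mES cells most were open. KOD was the state of 6 of the 63 genes in heart, 53 in forebrain and 2 in mES cells, or 9.52%, 84.1% and 3.17%. Among all 20665 protein-coding genes KOD was the state of 17.9% in heart, 19% in forebrain and 13% in mES cells. Open was the state of 57, 10 and 61 histone genes in heart, forebrain and mES cells, compared with 59.4%, 58.6% and 64.4% of all genes. No histone gene was LAD or outside the lists in any source, while 15.6%, 17.7% and 17.4% of all genes were LAD in the same order. Each gene was given the state with the most bases of its body.

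**Figure D1:**
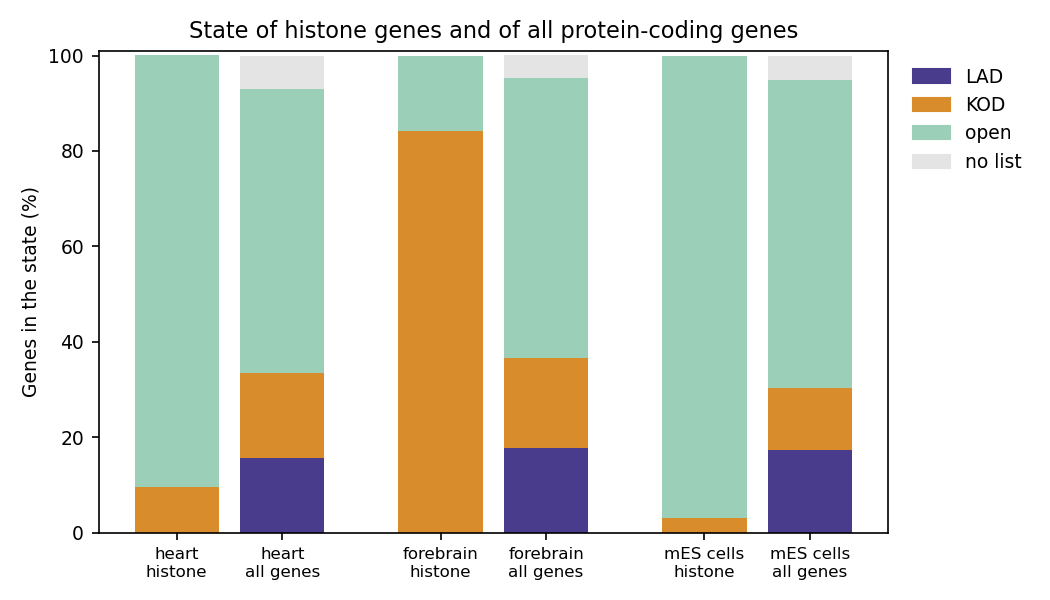
Stacked bars give the percentage of genes in each state in heart, forebrain and mES cells, for the 63 histone genes and for all 20665 protein-coding genes. The KOD part of the histone bar is 9.52% for heart, 84.1% for forebrain and 3.17% for mES cells.

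Between forebrain and mES cells, 51 of the 63 genes had another state, and all 51 were KOD in forebrain and open in mES cells. Another state was held by 23.1% of all genes listed in both maps. Among the 19003 protein-coding genes listed in both maps 12.7% were KOD in forebrain and open in mES cells, and 6.03% were the reverse. Starting from genes open in mES cells, 83.6% of the 61 such histone genes were KOD in forebrain, compared with 18.6% of all 12964 such genes listed in both. Between heart and mES cells, 4 histone genes had another state, all KOD in heart and open in mES cells. Among the 18685 genes listed in both, 20.2% had another state, 10.6% were KOD in heart and open in mES cells, and 4.42% were the reverse. Between heart and forebrain, 47 histone genes had another state, all open in heart and KOD in forebrain. Among 18728 genes listed in both, 16.0% had another state, 6.24% were open in heart and KOD in forebrain, and 5.31% were the reverse. These 3 comparisons share their lists in pairs, so the forebrain map enters both large counts and they are not separate observations.

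Taken as 3 states at once, 47 of 63 genes were open in heart, KOD in forebrain and open in mES cells, a combination held by 5.04% of all genes. Another 10 were open in all 3 sources, as 45.0% of all genes were. KOD in heart and forebrain with open in mES cells was found for 4 genes (6.54% of all genes), and KOD in all 3 for 2 (5.95%). No other combination occurred.

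The genes are not independent of each other in this measurement. With gaps of up to 500 kb allowed they form 3 clusters, and they occupy 35 bins of 10 kb, with up to 5 genes in 1 bin. Counted by bins, 6 of 35 were KOD in heart, 29 in forebrain and 1 in mES cells, or 17.1%, 82.9% and 2.86%. KOD took up 20.9% of all listed bases in heart, 18.6% in forebrain and 18.9% in mES cells. By bins the heart share was near that of the whole map, whereas by genes it was 9.52% against 17.9% of all genes. The background changes along with the unit here, since listed bases include stretches without genes. Of the KOD bins in heart, 96210001 to 96220000 on chromosome 3 holds only part of H2ac21. That from 23610001 to 23620000 on chromosome 13 holds only part of H2bc6, and both genes were called open. The lower heart share among genes is therefore not a firm difference. Counted by domains, the 63 genes lay in 7 domains in heart, 5 in forebrain and 4 in mES cells, so the counts of genes rest on few domains.

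The chromosome 3 cluster, the former Hist2 genes, was in 1 unbroken KOD in forebrain. It spans 96219885 to 96270192 of GRCm38 and holds 10 genes in 50.3 kb. In heart 7 of them were open, namely H2ac21, H2ac20, H2bc21, H3c15, H2ac19, H2ac18 and H3c14, and the last 3, H4c14, H3c13 and H2bc18, were KOD. In forebrain all 10 were KOD, and in mES cells all 10 were open. H2ac21, at the left end, was open over 75.3% of its body in heart, KOD over 100% in forebrain and open over 100% in mES cells, and the other 9 lay wholly in 1 state in each source. The domains differed in extent. The heart genes sat in an open stretch of 30 kb (96220001 to 96250000) and a KOD of 150 kb (96250001 to 96400000), the forebrain genes in a KOD of 480 kb (96040001 to 96520000), and the mES genes in an open domain of 2550 kb (94260001 to 96810000). All 10 midpoints were within 19.9 kb of a domain end in heart, whereas the nearest was 180 kb away in forebrain and 540 kb away in mES cells.

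The first chromosome 13 cluster was the only 1 of the 3 that was split in forebrain. It spans 21715711 to 22043658 and holds 22 genes. All 22 were open in heart, within 1 domain of 480 kb, and all 22 were open in mES cells, within 1 domain of 490 kb. In forebrain 12 were KOD and 10 open. The 5 genes at the left, H2bc13, H2ac13, H3c10, H2bc14 and H4c11, lay in a KOD of 100 kb. The next 10, H4c12, H2ac15, H2bc15, H1f5, H3c11, H2ac22, H2bc22, H2bc23, H2ac23 and H4c17, lay in an open stretch of 80 kb, 21740001 to 21820000, that held no other protein-coding gene. These 10 are the genes open in all 3 sources. H4c18 and H2ac24 followed in a KOD of 250 kb that also took in the separate group H2ac12, H2bc12, H4c9, H2ac11 and H2bc11 at 22035122 to 22043658. Vmn1r188, a pheromone receptor gene and the nearest other protein-coding gene on the right of the cluster, was open in all 3 sources. Every histone gene of this cluster was covered over 100% of its body by its state in each source.

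The second chromosome 13 cluster was KOD in forebrain from end to end. It spans 23531044 to 23934913 and holds 31 genes, among them H1f1 to H1f4, which encode linker histones of somatic cells, and H1f6, which encodes the testis linker histone H1t. All 31 lay in a single forebrain KOD of 610 kb, 23410001 to 24020000. In heart 28 were open and 3 KOD, and in mES cells 29 were open and 2 KOD. The 28 genes open in heart, KOD in forebrain and open in mES cells were, from left to right, H4c8, H2ac10, H3c8, H2bc9, H3c7, H4c6, H1f3, H3c6, H2ac8, H2bc8, H2bc7, H2ac7, H3c4, H4c4 and H2bc6 in the heart's open domain from 23250001 to 23610000, and H2ac6, H2bc4, H1f6, H4c3, H1f2, H3c3, H2bc3, H2ac4, H3c2, H4c2, H4c1, H3c1 and H1f1 in that from 23680001 to 23790000. H1f4 (23621777 to 23622558) was wholly KOD in heart, in a KOD of 50 kb, wholly KOD in forebrain and wholly open in mES cells. Its neighbour H2bc6, whose annotated body is 37455 bases long, was open over 70.3% of that body in heart, KOD over 100% in forebrain and open over 100% in mES cells. The 5 H1 genes were alike in forebrain and in mES cells, and H1f4 was the only H1 gene that was KOD in heart.

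The testis-specific pair H2bc1 and H2ac1 differed from the rest of this cluster. These genes encode the H2B and H2A variants that replace much of the somatic form in male germ cells. They share 1 bin (23930001 to 23940000) and were wholly KOD in heart, in forebrain and in mES cells. An open domain ended at the same base, 23790000, in heart and in mES cells, and H1f1 (23763668 to 23764412) was the last histone gene before it. The phosphate transporter genes Slc17a2, Slc17a3, Slc17a1 and Slc17a4, which lie between H1f1 and the pair, were KOD in all 3 sources too. Scgn, the first other protein-coding gene to the right of the pair, was likewise KOD in all 3. H1f6, the other testis gene of the 63, was open in heart, KOD in forebrain and open in mES cells.

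**Figure D2:**
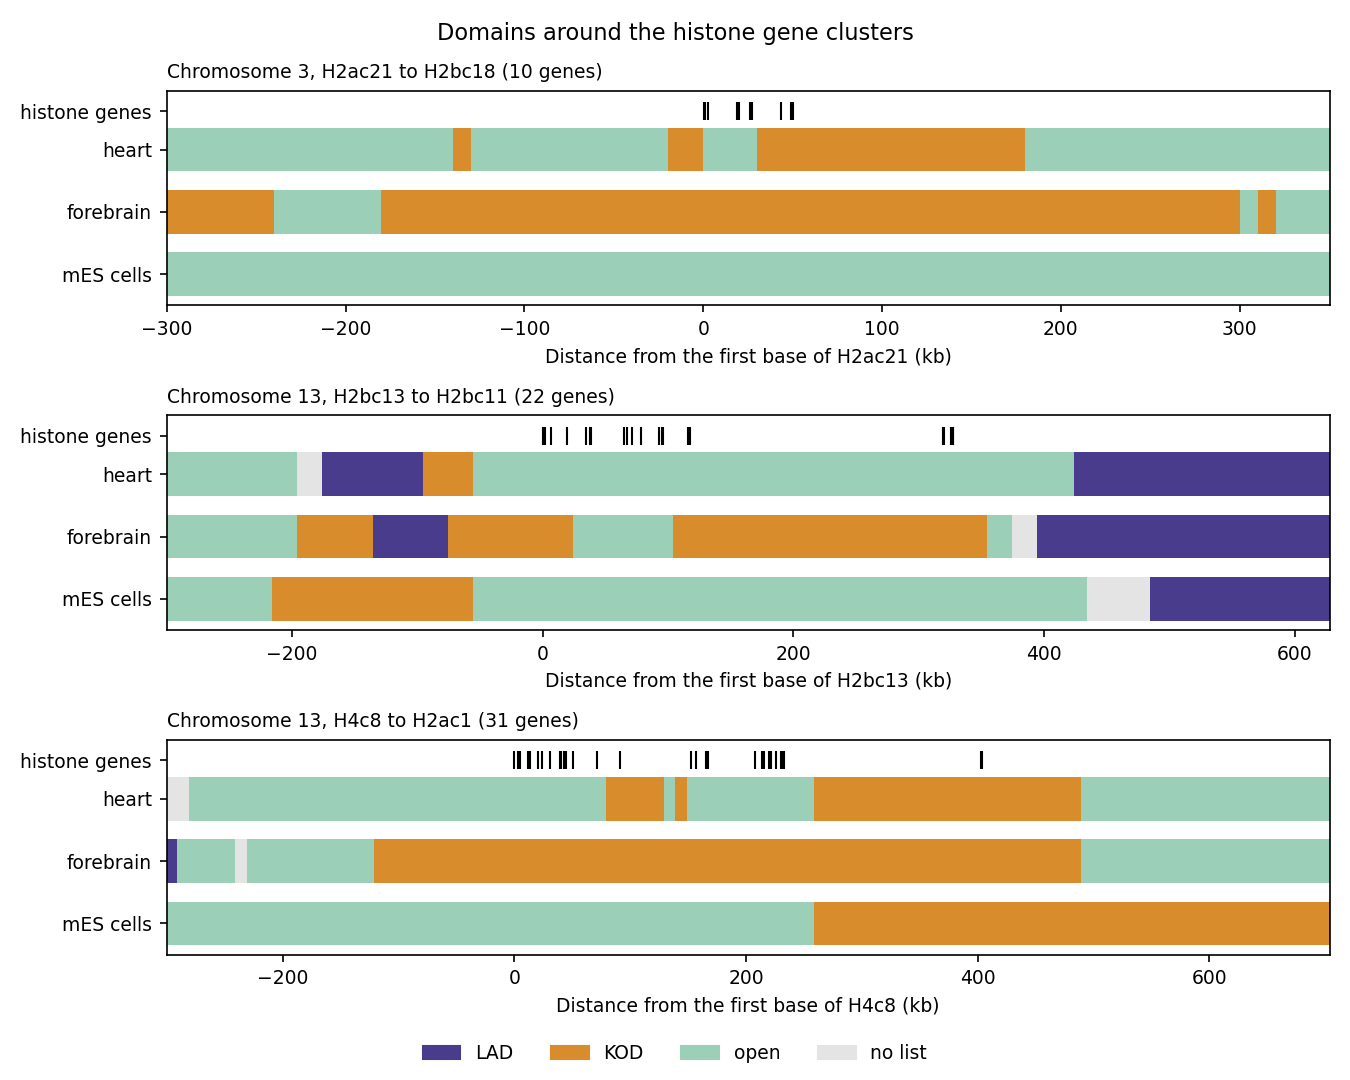
Domains of heart, forebrain and mES cells over the 3 histone clusters and 300 kb on each side, with distance from the first base of the first gene in kb on the x axis and each histone gene as a tick. The forebrain rows are KOD under all ticks except for the open stretch of 80 kb in the middle panel, and in the bottom panel the last 2 ticks, H2bc1 and H2ac1, are over KOD in every row.

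The 5 histone classes had similar KOD shares in forebrain. Genes of different classes lie side by side in the same 5 forebrain domains. The shares by class therefore follow from position and are not separate readings of each class. Among H1 genes 1 of 6 was KOD in heart, 5 in forebrain and 0 in mES cells. Among H2A genes the numbers were 1, 14 and 1 of 17, and among H2B genes 2, 13 and 1 of 16. Among H3 genes they were 1, 11 and 0 of 12, and among H4 genes 1, 10 and 0 of 12. The combination open in heart, KOD in forebrain and open in mES cells was held by 4 H1, 13 H2A, 11 H2B, 10 H3 and 9 H4 genes.

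**Figure D3:**
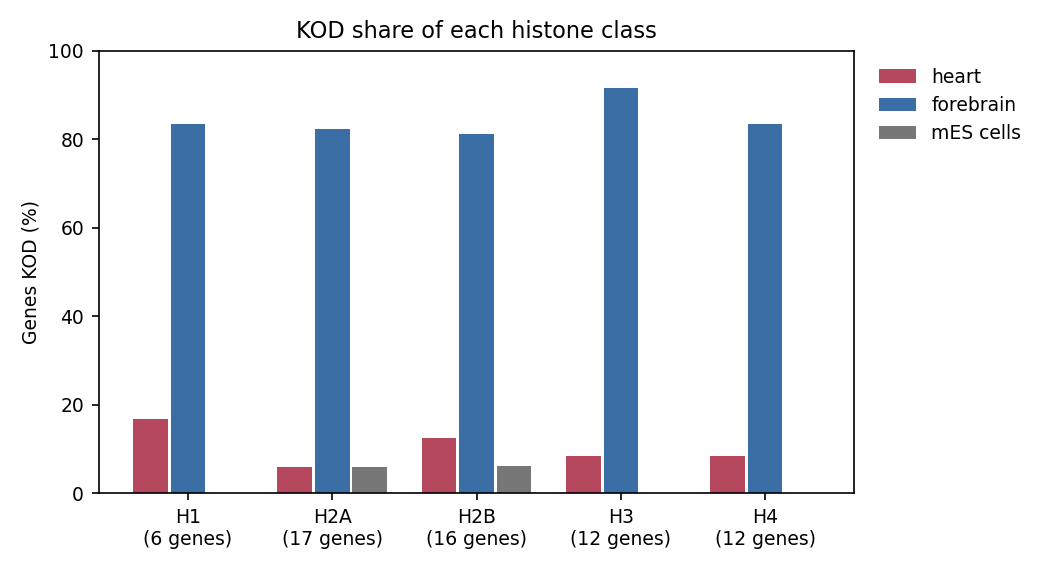
Percentage of genes that were KOD in heart, forebrain and mES cells for each histone class, with the number of genes of the class below the axis. Forebrain bars stand on 5 of 6 H1, 14 of 17 H2A, 13 of 16 H2B, 11 of 12 H3 and 10 of 12 H4 genes.

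The regions that were KOD in forebrain and open in mES cells were longer than the median at the histone clusters. A run of bins in that class was 40 kb long at the median of the 1944 runs on chromosomes 1 to 19, and the longest was 610 kb. The 51 histone genes lay in 4 of these runs. That of chromosome 3 was 480 kb long and 7 runs were longer. On chromosome 13 the run from 23410001 to 23790000 was 380 kb long and held 29 histone genes, and 19 runs were longer. The runs of 250 kb (21820001 to 22070000) and 80 kb (21660001 to 21740000) held 7 and 5 histone genes, and 80 and 509 runs were longer. Between heart and forebrain the histone genes that were open in heart and KOD in forebrain lay in 5 runs of 30, 80, 250, 200 and 110 kb, where the median of 1626 runs was 20 kb. In both comparisons the runs were taken because they hold histone genes. A longer run is likelier to hold a gene, so lengths above the median were in part fixed in advance.

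**Figure D4:**
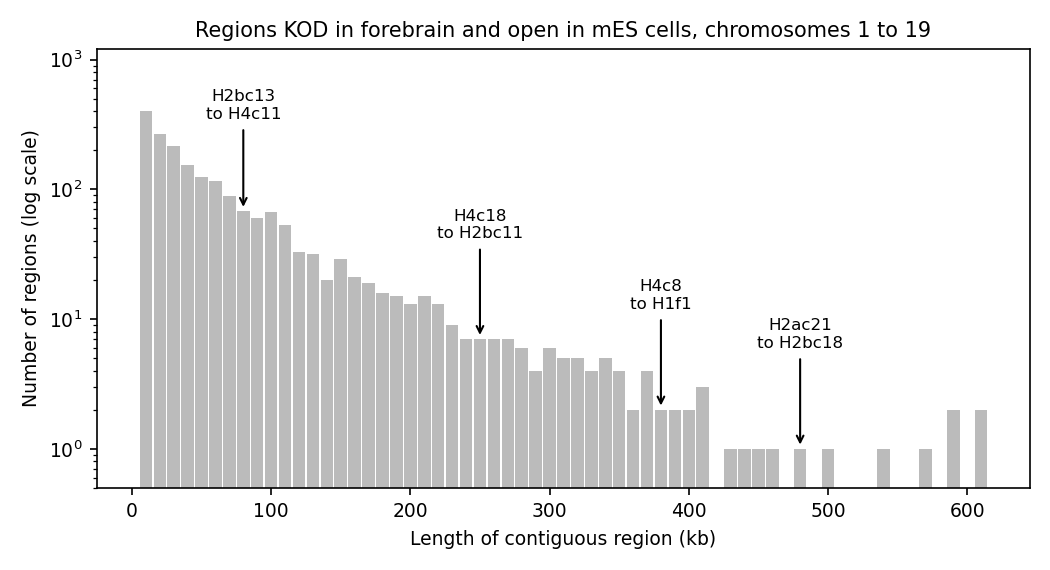
Number of contiguous regions by length in kb, on a log scale, for bins that were KOD in forebrain and open in mES cells over chromosomes 1 to 19. Arrows mark the 4 regions that hold histone genes, at 80, 250, 380 and 480 kb, compared with a median of 40 kb.

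The 4 runs also held 17 other protein-coding genes. These are KOD in forebrain and open in mES cells because the runs are defined by those states, so only their state in heart was not fixed. It is not a separate reading for all of them. The 10 on chromosome 13, and Fcgr1 on chromosome 3, lie in heart domains that also hold histone genes. On chromosome 3 they were Otud7b, Mtmr11, Sf3b4, Sv2a, Bola1, Fcgr1 and BC107364, of which Sf3b4 encodes a splicing factor and Sv2a a protein of synaptic vesicles, and Fcgr1 was the 1 of these 7 that was KOD in heart. On chromosome 13 they were Olfr1360, Olfr1359, H4bc24, Zfp184, Pom121l2, Prss16, Abt1, Btn1a1, Btn2a2 and Hfe, the last a regulator of iron uptake, and all 10 were open in heart. Of all 2416 protein-coding genes KOD in forebrain and open in mES cells, histone genes included, 1042 were open in heart and 1351 were KOD in heart. Trim38 crosses the end of the run at 23790000, and Olfr1361 crosses the start of that at 21660001. Both were open in heart, KOD in forebrain and open in mES cells as well. Among all other genes of these chromosomes, those in the runs included, the combination was uncommon. It was held by 18 of 973 other genes on chromosome 3, 6 of them in the run, and by 18 of 776 on chromosome 13, 10 of them in the runs.

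The chromosomes as a whole did not have more KOD in forebrain. KOD took up 6.44% of the listed bases of chromosome 3 in heart, 4.28% in forebrain and 10.1% in mES cells. On chromosome 13 it took up 27.2%, 20.5% and 27.3%. Of the other protein-coding genes, 5.24% were KOD in heart, 5.14% in forebrain and 5.45% in mES cells on chromosome 3, and 17.3%, 13.8% and 16.0% on chromosome 13.

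The other histone genes examined were open or KOD, and none of them was LAD. Matching by older Hist symbols would have added H4f16 on chromosome 6 and H2bu2 and H2aw on chromosome 11, each wholly open in all 3 sources, and H4bc24, which lies within the first chromosome 13 cluster, wholly open in heart and in mES cells and wholly KOD in forebrain. Of 14 genes listed as variants made outside S phase or found alone in the genome, 5 were KOD in heart, 4 in forebrain and 1 in mES cells, and the other 9, 10 and 13 were open. Among all genes 17.9%, 19% and 13% were KOD and 59.4%, 58.6% and 64.4% open in the same order, so in heart the open count was near the share of all genes and the KOD count above it, on few genes. H3f3a and H3f3b, which encode the replacement variant H3.3, were KOD in heart and forebrain and open in mES cells, each over 100% of the body. Hils1, a linker histone of spermatids, was open in heart, KOD in forebrain and open in mES cells. H1f7, a further linker histone of spermatids, was KOD in all 3. Cenpa, the centromeric H3 variant, and Macroh2a2 were KOD in heart, over 60.8% and 97.0% of the body, and open in forebrain and in mES cells. H1f0, H1f10, H1f8, H2az1, H2az2, H2ax, H2aj and Macroh2a1 were open in all 3 sources.

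Most genes that act on histone genes or carry histones were open, as most genes of the maps were. Of 28 matched genes for the transcription of histone genes and the processing of their mRNA, 1 was KOD in heart, 2 in forebrain and 0 in mES cells, and 27, 26 and 28 were open. The shares of all genes were 17.9%, 19% and 13% for KOD and 59.4%, 58.6% and 64.4% for open. The KOD genes were Zfp473, a component of the histone pre-mRNA machinery, KOD in heart, and Srrt and Pou2f1, the gene of the octamer-binding factor Oct1, KOD in forebrain over 100% and 72.7% of the body. Of 26 matched histone chaperone genes 1 was KOD in heart, 4 in forebrain and 0 in mES cells, and 24, 20 and 25 were open. Rbbp4, a subunit of the chromatin assembly factor CAF-1, was KOD in heart and forebrain and open in mES cells. Supt6, Anp32e and Set were open in heart, KOD in forebrain and open in mES cells, and Anp32e lies on chromosome 3 near the histone cluster, in another KOD.

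Set beside other families, the combination open in heart, KOD in forebrain and open in mES cells was held by 74.6% of the 63 histone genes, 28.2% of 39 Hox genes, 8.64% of 81 ribosomal protein genes and none of 49 keratin genes. Among all genes it was held by 5.04%. KOD in forebrain was the state of 84.1%, 41.0%, 23.5% and 85.7% of these families. Keratin genes, which also lie in dense clusters, were KOD in heart in 48 cases, in forebrain in 42 and in mES cells in 38. Among all genes 17.9%, 19% and 13% were KOD in the same order. Clustered genes can share a domain in these families too, so they are not separate observations. These are counts from 1 map per source with no test of the difference.

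The octamer was found in promoters of H2A and H2B genes alone, and most H1 promoters held the H1 box. RefSeq promoters of 300 bases, 250 before and 50 after the start, were found for 58 of the 63 genes, 59 in all, and motifs were counted on both strands. ATTTGCAT, the octamer first known from H2B promoters, was in 7 of 15 H2B and 6 of 17 H2A promoters and in none of the 6 H1, 10 H3 and 11 H4 promoters, compared with 1.74% of all 32851 promoters. AAACACA, the H1 box, was in 5 of 6 H1, 2 of 17 H2A and 2 of 15 H2B promoters. It was in none of the H3 and H4 promoters and in 7.18% of all. CCAAT was in 51 of 59 and TATAAA in 34 of 59, compared with 37.4% and 13.6% of all, and CCAAT was in 3 of the 11 H4 promoters. By state, the octamer was in 10 of 44 promoters of genes open in heart, KOD in forebrain and open in mES cells, in 0 of 10 of genes open in all sources, in 1 of 3 of genes KOD in heart and forebrain and open in mES cells, and in both promoters of H2bc1 and H2ac1. In the same order TATAAA was in 23, 8, 1 and 2 promoters, CCAAT in 38, 8, 3 and 2, and the H1 box in 5, 1, 1 and 2. These counts pool all classes, so they also follow the mix of classes in each state. Among the printed promoters the octamer stands in those of H2bc18 and H2bc1. Promoters are not all separate, since H2A and H2B genes that lie back to back have overlapping windows. An octamer there can be counted for both genes. That of H2bc1, at -164 to -157 from its start, also lies in the window of H2ac1, so it is 1 site counted for both. A match is only a run of letters, and its absence from this window says nothing of a factor.

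H2A and H2B genes often share a promoter and are read in opposite directions. Among genes with a strand in the promoter table, 9 H2A and H2B pairs were divergent, with 163 to 280 bases between their starts (median 179). Both genes of each pair had the same state in each source, as their distance is far below the size of a bin. Of these pairs 5 were open in heart, KOD in forebrain and open in mES cells, 3 were open throughout, and 1, H2bc1 with H2ac1, was KOD throughout.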

How the data were processed

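The submitters' processing notes name the mm10 genome, Bowtie2 2.5.0, cutadapt 4.2, Trim Galore, deepTools and Picard. The sources used here give neither the domain caller nor the use made of IgG. The authors deposited 9 lists of domain starts and ends with no score, and each start was read as the base after it and each end as the last base of its 10 kb bin. Near-identical histone copies can share reads, which can place or drop a bin. GRCm38.p6, whose RefSeq genes were used, is the assembly behind mm10.

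Genes were set against the lists with Python 3.11.15, numpy 2.4.6 and pandas 2.3.3, and figures drawn with matplotlib 3.10.9. The step was tested on simulated maps. Strand was known for 58 of the 63 genes. Lists cover 28 of 30 transcription and processing genes, 26 of 28 chaperones and 14 of 14 variants. The members and lists were chosen with earlier results of these data known. Genes are named where states differ between sources, at cluster ends, and in the lists by the same rule. No test was planned, since each source has 1 pooled map. Protein sequences were not used here. Alternatives were other definitions of a gene's state, trimmed domain ends, a minimum length and other cluster gaps.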

Additional observations from a re-analysis of the deposited data

How the results depend on the processing

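Of 114 recomputed counts 102 stayed close to their value (a ratio of at most 1.5). This tally overstates stability. Leaving out genes outside clusters of 3 or more removed no gene, so its 16 counts could not move. The LAD counts were 0 in every setting. Reading the state at the midpoint changed none of the 63 genes. The state at the start of transcription gave the same combination for 56 of 58 genes with a strand, all but H2ac21 and H2bc6, whose starts were KOD in heart. Where a state had to cover the whole body, 2 genes were in no list in heart. With both ends of all domains cut back by 20 kb, 14 genes were in no list in heart and 10 in forebrain, 3 were KOD in heart, 4 were open in forebrain, 1 differed between heart and mES cells, and 6 kept 1 state in all sources. Then 47 were KOD in forebrain and open in mES cells, as were 11.2% of all genes listed in both maps. The combination open in heart, KOD in forebrain and open in mES cells fell from 47 genes to 32. Only 39 of the 63 genes kept their combination. The count with another state between heart and forebrain also fell from 47 to 32, just inside the ratio. With domains under 100 kb left out, the open stretch of 80 kb drops out by construction, so 0 genes were open in forebrain, 10 were in no list there, 8 were in none in heart, and 2 kept 1 state in all sources. In that setting 51 genes were KOD in forebrain and open in mES cells, as were 12.5% of all genes listed in both maps. Open in heart, KOD in forebrain and open in mES cells was then the combination of 40 genes. The share of all genes with this combination was not recomputed in this setting or with trimmed ends. A gap of 100 kb split the genes into 5 clusters and one of 2 Mb joined them into 2. Counting genes by older symbols, chosen after the data were seen, moved no count beyond that ratio.

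No paired analysis was possible because each list pools its replicates.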

Other observations

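The stretch between the clusters of chromosome 13, 22043659 to 23531043, holds 41 protein-coding genes, 36 of them Vmn1r genes, which encode pheromone receptors of the vomeronasal organ. LADs took up 69.9% of it in heart, 76.0% in forebrain and 42.4% in mES cells. Of the Vmn1r genes 31 were LAD in heart, 33 in forebrain and 19 in mES cells, and 2, 1 and 11 were in no list. The histone genes on both sides of it were open or KOD in every source. Up to 500 kb beyond the first chromosome 13 cluster, 18 of 35 non-histone genes were LAD in heart, 17 in forebrain and 13 in mES cells. Beyond the second, 7, 9 and 4 of 17 were LAD in the same order. Many of these are Vmn1r genes of the stretch just described, so the counts overlap. Among all genes 15.6%, 17.7% and 17.4% were LAD. Around the chromosome 3 cluster none of 32 was LAD in any source.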
